A study of Mus musculus with 115 samples.

Results

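The genes described here are 10 of the 37315 genes of a deposited count table: Oxt, Avp, Pmch, Hcrt and Agrp, which encode peptides of small groups of hypothalamic neurons, and Npy, Sst, Vip, Cck and Tac1, which encode peptides made by many neurons of the cortex and striatum as well. They were taken by symbol, with earlier results of these data known, and the rule used no measured value. The study compared male C57BL/6J mice (given as C57BL/6 in the sample labels) that were 2, 9, 15, 24 or 30 months old. Each brain library was made from one hemisphere, and the mice carried no transgene or treatment that the labels name. There were 8 brain libraries at 2, 9, 15 and 30 months and 7 at 24 months, 39 in all.

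Neuropeptides are cut from larger precursors by prohormone convertases, stored in dense-core vesicles, and act on G protein-coupled receptors. In the hypothalamus their genes are switched on in compact cell groups: oxytocin and vasopressin in the paraventricular and supraoptic nuclei, melanin-concentrating hormone and hypocretin in the lateral hypothalamus, and agouti-related peptide in the arcuate nucleus. In the cortex, somatostatin, vasoactive intestinal peptide and neuropeptide Y mark classes of inhibitory interneurons, cholecystokinin is made by both inhibitory and excitatory neurons, and the tachykinin gene Tac1, the precursor gene of substance P, is strong in striatal projection neurons.

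Promoters are shown first for 2 sets of members picked from the correlations between brain libraries in the results below. Vip with Tac1 and Agrp with Tac1 were also correlated there and are not shown. Hcrt fell short of the threshold there with Avp. RefSeq start sites on GRCm38.p6, the build of the reference, gave a promoter for 9 of the 10 members, and Agrp had none. The first set is Oxt, at chr2:130576049-130576168 (+ strand), Avp, at chr2:130582589-130582708 (- strand), and Hcrt, at chr11:100762932-100763051 (- strand), and the 120 bases that end 1 base before the start site are given 5′ to 3′ on the strand of the gene. The second set is Npy, at chr6:49822590-49822709 (+ strand), Cck, at chr9:121495695-121495814 (- strand), and Sst, at chr16:23890874-23890903 (- strand). For Sst only the 30 bases around the element are given, since annotated exons overlap the 120-base window. These 30 bases also lie within the annotated span of the Sst gene (chr16:23889573-23890958). Whether an exon covers them was not checked. Capitals mark matches, on either strand, to 3 motifs. The first is the palindromic cyclic AMP response element TGACGTCA. The second is its short core, spelled TGACG, which overlaps the whole element and reads in reverse as CGTCA. The third is the TATA box, spelled TATAAA, whose reverse is TTTATA.
Oxt: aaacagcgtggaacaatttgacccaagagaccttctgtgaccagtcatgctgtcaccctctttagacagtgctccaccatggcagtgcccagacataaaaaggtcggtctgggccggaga
Avp: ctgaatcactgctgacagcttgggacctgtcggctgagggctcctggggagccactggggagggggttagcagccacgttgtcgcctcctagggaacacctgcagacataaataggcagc
Hcrt: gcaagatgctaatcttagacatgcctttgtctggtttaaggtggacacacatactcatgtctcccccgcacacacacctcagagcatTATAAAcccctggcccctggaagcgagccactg
Npy: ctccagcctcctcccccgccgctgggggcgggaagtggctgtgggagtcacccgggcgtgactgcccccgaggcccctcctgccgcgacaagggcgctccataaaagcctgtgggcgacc
Cck: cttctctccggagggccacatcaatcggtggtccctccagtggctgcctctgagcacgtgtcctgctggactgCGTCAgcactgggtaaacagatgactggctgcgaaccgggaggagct
Sst: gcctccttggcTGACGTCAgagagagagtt
The whole element was in the 250 bases upstream of 1 member, Sst, 41 to 48 bases before the start, against 1.62% of all 27025 promoters of that length. The short core was upstream of 4 members (Sst, Vip, Cck and Tac1), against 17.9% of all promoters. The TATA box was upstream of 3 members (Pmch, Hcrt and Vip), against 13%. The Oxt, Avp and Npy windows held none of these letters. A match describes the sequence and is not evidence that a factor binds there. Oxt and Avp lie tail to tail on chromosome 2, on opposite strands, with 3.57 kb between their ends, and their exon counts share no annotated overlap.

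The values are counts of reads per gene. A level is given as CPM, the counts a gene would have in a library of 1000000 counts, with library totals scaled by the trimmed mean of M values (TMM). The brain libraries held between 28141342 and 50375815 counts, and mitochondrial transcripts took between 5.79% and 17.1% of them (median 7.75%). Snap25, a neuronal vesicle fusion gene, lay between 1560 and 2615 CPM in every brain library. Of 20 hypothalamic transcription factor genes listed as markers, 18 passed the filter on low counts, and Rax and Hmx2 did not. Between the ages of 9 and 15 months, 5 pairs of libraries with the same title code were nearly identical: the mean chi-square per gene was 1.22 to 2.89 within these pairs, against 4.61 for the closest and 45 for the median pair of the same age. The spread, the correlations and the calls among ages were also computed without these 10 libraries.

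All 10 members were detected in every brain library, and all 10 passed the filter. Per base of annotated exon, Sst had the highest mean level (161 RPKM, the CPM per kilobase of exon), followed by Cck (94.7), Npy (62.6), Avp (21.0), Tac1 (15.0), Oxt (14.0), Pmch (13.7), Vip (9.31), Hcrt (4.65) and Agrp (0.639). Sst exceeded Cck, Cck exceeded Npy, Npy exceeded Avp and Vip exceeded Hcrt in 39 of 39 libraries each. The order in the middle was not fixed: Avp exceeded Tac1 in 27, Tac1 exceeded Oxt in 22 and Oxt exceeded Pmch in 21 of 39 libraries.

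Oxt, Avp, Pmch, Hcrt and Agrp varied far more between libraries of one age than Npy, Sst, Vip, Cck and Tac1 did. The pooled standard deviation of log2 CPM within an age was 1.15 for Oxt, 1.27 for Avp, 0.84 for Pmch, 0.99 for Hcrt and 0.51 for Agrp, and 0.14 for Npy, 0.15 for Sst, 0.18 for Vip, 0.15 for Cck and 0.21 for Tac1. The median over the 18851 genes tested was 0.23. Without the 10 near-identical libraries the standard deviation was 1.29 for Oxt, 1.43 for Avp, 0.97 for Pmch, 1.16 for Hcrt, 0.59 for Agrp and 0.14 to 0.22 for the others. Counting error alone would give 0.08 for Oxt, 0.07 for Avp, 0.12 for Hcrt and 0.02 for Cck. For Agrp, with a mean of 25.6 counts, counting error would give 0.29. Pmch (99.3rd percentile of all genes), Hcrt (99.6th), Oxt (99.7th) and Avp (99.8th) were thus among the most variable genes of the brain libraries, Agrp was at the 93.8th percentile, and Npy, Sst, Vip, Cck and Tac1 lay between the 24.1st and the 45.2nd percentile.

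**Figure D1:**
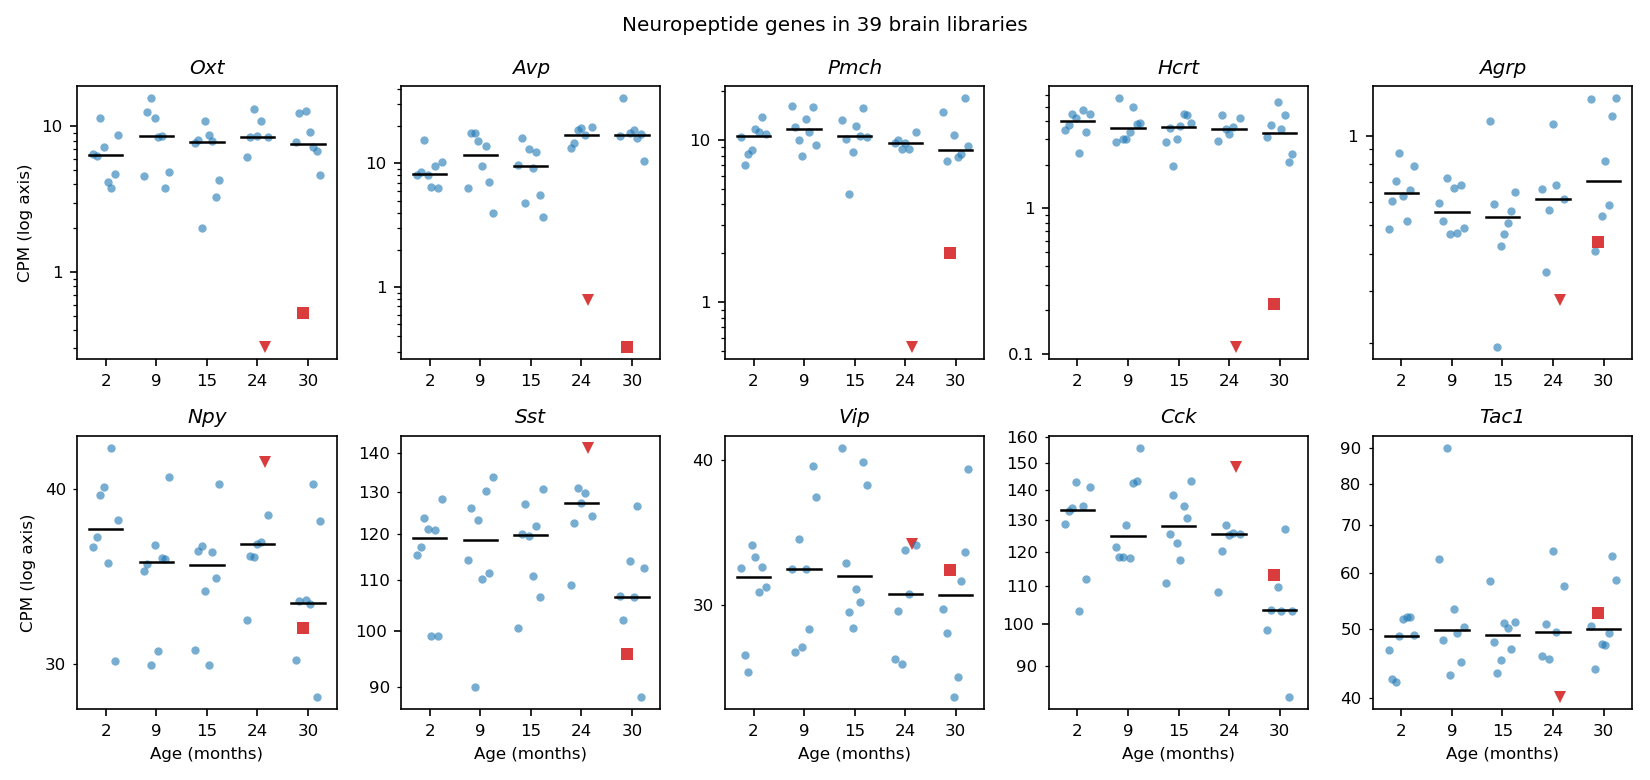
Level of each of the 10 genes in the 39 brain libraries, as CPM on a log axis with its own range for each gene, against age in months. Circles are single libraries, bars are the median of each age, the triangle is replicate 6 of 24 months and the square is replicate 3 of 30 months. These 2 libraries sit at the bottom for Oxt, Avp, Pmch and Hcrt (0.308 and 0.528 CPM for Oxt) and within the range of the others for Npy, Vip and Cck, and for Tac1 replicate 6 of 24 months is the lowest of the 39 (40.2 CPM).

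A large share of that spread came from 2 libraries, replicate 6 of 24 months and replicate 3 of 30 months. Oxt, the precursor gene of the hormone of lactation and labour, had 0.308 CPM (11 counts) and 0.528 CPM (24 counts) in them, against 2.02 to 15.6 CPM (median 8.00) in the other 37. Avp, the precursor gene of the antidiuretic hormone vasopressin, had 0.784 CPM (28 counts) and 0.330 CPM (15 counts), against 3.72 to 33.5 CPM (median 13.1). Both libraries lay below all 37 others for both hormones. Pmch, the melanin-concentrating hormone precursor, which acts in feeding and sleep, had 0.532 and 2.02 CPM, against 4.64 to 17.97 CPM (median 10.4). Hcrt, the hypocretin (orexin) precursor, whose loss causes narcolepsy, had 0.112 CPM (4 counts) and 0.220 CPM (10 counts), against 1.97 to 5.71 CPM (median 3.66). In replicate 6 of 24 months the level was 26.0-fold (Oxt), 16.7-fold (Avp), 19.5-fold (Pmch) and 32.7-fold (Hcrt) below the median of the 37. In replicate 3 of 30 months it was 15.2-fold, 39.6-fold, 5.12-fold and 16.6-fold below it. Agrp, an antagonist of the melanocortin receptors that drives feeding, had 0.280 and 0.440 CPM there and stayed inside the range of the others (0.195 to 1.33 CPM).

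Other genes of the hypothalamus were low in the same 2 libraries. Otp, a transcription factor of neuroendocrine hypothalamic neurons, had 0.140 and 0.132 CPM, against 0.195 to 1.63 CPM (median 0.751) in the 37. Sim1, which the paraventricular nucleus needs to form, had 0.224 and 0.132 CPM, against 0.267 to 1.41 CPM (median 0.813). Fezf1 had 0.224 and 0.198 CPM, against 0.243 to 1.63 CPM (median 0.868). All 3 were below every other library in both. Of the 18 hypothalamic transcription factors, 7 in replicate 6 of 24 months and 5 in replicate 3 of 30 months were below all 37 others, and the mean log2 CPM of the list was −0.07 and −0.03, against 0.11 to 1.37 (median 0.81). Among 13 further hypothalamic peptide genes, 5 and 4 were below all 37 others. Gal (galanin) had 0.532 and 0.880 CPM, against 1.25 to 3.74 CPM (median 2.33), and Trh (thyrotropin-releasing hormone) had 4.23 and 3.01 CPM, against 6.13 to 13.4 CPM (median 9.04). For other lists the counts below all 37 others were 1 and 8 of 24 tested receptors of the members and 2 and 1 of 20 interneuron genes. They were 0 and 0 of 14 excitatory cortex genes and 0 and 1 of 12 striatum genes. The share of all genes tested that lay below all 37 was not counted. The list of transcription factors was not low throughout. Lhx1, Lhx9 and Dlx1, which other brain regions also express, lay within the range of the other libraries in both. The summed level of that list, 74.6 and 68.0 CPM, was inside the range of the 37 (67.5 to 93.4 CPM). An olfactory bulb list was also below all 37 others in replicate 6 of 24 months (mean log2 CPM 0.786, against 0.867 to 1.95). In replicate 3 of 30 months it was inside that range (1.07).

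The 2 libraries differed in their other neuronal genes. In replicate 6 of 24 months the excitatory cortex list summed to 6046 CPM, above the highest of the 37 (5575 CPM), and Sst (141 CPM) was the highest of all 39 libraries. In replicate 3 of 30 months the same list summed to 4456 CPM, below the median of the 37 (4834 CPM), the neuron list summed to 5372 CPM against a median of 7085 CPM, and 8 of 24 tested receptors of the members were below all 37 others. Replicate 3 of 15 months was the next lowest library for the hypothalamic transcription factors (0.11) and had the lowest Oxt (2.02 CPM), Pmch (4.64 CPM) and Hcrt (1.97 CPM) of the 37. In bulk tissue fewer cells of a type and less RNA per cell cannot be told apart, and how much hypothalamus each dissected hemisphere held was not recorded in the labels.

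**Figure D2:**
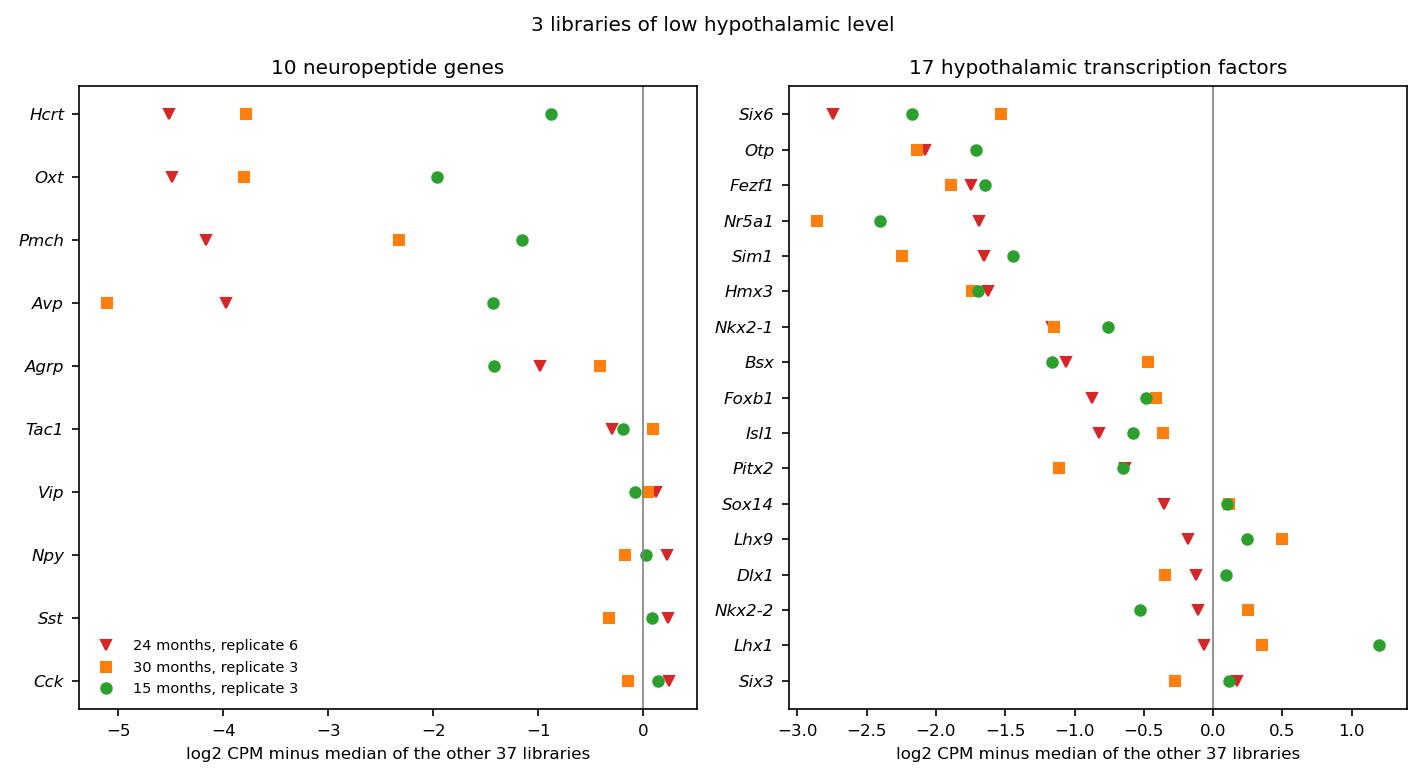
Log2 CPM in 3 libraries minus the median of the 37 libraries other than replicate 6 of 24 months and replicate 3 of 30 months, for the 10 neuropeptide genes (left) and 17 of the 18 hypothalamic transcription factors (right). The vertical line at 0 is that median. Oxt, Avp, Pmch and Hcrt lie farthest to the left, at −5.11 to −2.33 in those 2 libraries, and Npy, Sst, Vip, Cck and Tac1 lie between −0.32 and 0.24.

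Without these 2 libraries the spread of Oxt fell to 0.64 on the log2 scale, that of Avp to 0.60, that of Pmch to 0.40 and that of Hcrt to 0.36. Oxt (98.1st percentile) and Avp (97.2nd) were still among the most variable genes, and Pmch (82.6th) and Hcrt (77.3rd) were above the median gene. The choice of these libraries was made after their values were seen, and both are old, so leaving them out raises the old means of the 4 genes by construction.

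Levels were then compared across the 5 ages. The study set the youngest age against its oldest pair of ages, so 24 and 30 months together were compared with 2 months by edgeR's quasi-likelihood test, with p-values adjusted over all 18851 genes by the Benjamini-Hochberg method and a gene called at an adjusted p under 0.05. Of the 10 members, 0 were called, against 7.98% of all genes tested, and 1 (Cck) had an unadjusted p under 0.05. DESeq2 and limma voom called 0 as well. The median log2 fold change was −0.00064 over the members and −0.0016 over all genes, with 5 members above 0. In a test of any difference among the 5 ages 1 member, Cck, was called, against 6.47% of all genes. An alternative edgeR fit held a block by title code and number, the replicate block. With it Npy and Sst were called among the ages as well. It also called Cck in the old against 2 months, and Cck, Npy and Sst from 24 to 30 months. The share of all genes called with that block is not given here. In the main fit, without a block, 0 members were called between successive ages. The shares of all genes were 0.34% from 2 to 9 months, 0% from 9 to 15 months, 0.0424% from 15 to 24 months and 0.249% from 24 to 30 months. At 9 and at 15 months 5 of the 8 libraries belong to the near-identical pairs, so that from 9 to 15 months most libraries were set against a near copy, and the 0 calls there say nothing about change. Without these 10 libraries 0 members were called in the earlier intervals as well. Members with an unadjusted p under 0.05 numbered 0, 0 and 0 in the earlier intervals and 2 (Cck and Sst) from 24 to 30 months. When 30 months alone was set against 2 months, 1 member, Cck, was called, against 9.93% of all genes.

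Among the hypothalamic members, Oxt did not differ beyond its spread. Its lowest, median and highest levels were 3.76, 6.34 and 11.5 CPM at 2 months, 3.79, 8.58 and 15.6 CPM at 9 months, 2.02, 7.84 and 10.8 CPM at 15 months, 0.308, 8.53 and 13.1 CPM at 24 months and 0.528, 7.53 and 12.7 CPM at 30 months. The age ranges overlapped throughout. The log2 fold change of the old against 2 months was 0.25 (SE 0.37, 95% interval −0.48 to 0.98, edgeR adjusted p = 0.831), and 0.45 (SE 0.27, adjusted p = 0.406) without the 2 low libraries.

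Avp had the largest fitted difference of old against 2 months of the 10 members in edgeR and DESeq2, and it was not called with all 39 libraries. In limma voom Hcrt differed more (−0.69, against 0.32 for Avp). Its lowest, median and highest levels were 6.31, 8.28 and 15.6 CPM at 2 months, 3.94, 11.7 and 17.8 CPM at 9 months and 3.72, 9.47 and 16.1 CPM at 15 months. At 24 months they were 0.784, 17.1 and 19.7 CPM, and at 30 months 0.330, 16.96 and 33.5 CPM. Apart from the 2 low libraries, every library of 24 months lay between 13.3 and 19.7 CPM and every library of 30 months between 10.4 and 33.5 CPM. Of the 15 old libraries, 13 were above the second highest library of 2 months and 10 were above the highest. The 2-month group held 1 library, replicate 3, at 15.6 CPM and the other 7 between 6.31 and 10.2 CPM.

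With all 39 libraries the log2 fold change of Avp was 0.78 (SE 0.39, 95% interval 0.0021 to 1.55, edgeR adjusted p = 0.290), which was not called. That interval is a normal approximation from the SE and is narrower than the edgeR test implies. By that test the unadjusted p of Avp was not under 0.05. The fold change stayed uncalled in each of 39 fits that left out 1 library (0.66 to 0.93, adjusted p 0.0982 to 0.419). Without the 2 low libraries it was 0.98 (SE 0.26, 1.97-fold, adjusted p = 0.0120), against 7.79% of genes called, and it was then called among the 5 ages too (adjusted p = 0.0260, against 5.28% of genes) and at 30 against 2 months (1.04, SE 0.29, adjusted p = 0.0151, against 8.81%). The call therefore rests on leaving out libraries that were picked after their Avp was seen. DESeq2 (0.97, adjusted p = 0.00227) and limma voom (adjusted p = 0.00927) also called Avp on those 37 libraries, and with all 39 they gave log2 fold changes of 0.77 (adjusted p = 0.286) and 0.32 (adjusted p = 0.870).

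Other values are given here beside those of Avp, and whether they move with it was not tested. In the old against 2 months the 13 tested further hypothalamic peptide genes had a median log2 fold change of −0.08. Without the 2 low libraries it was −0.03. The hypothalamic transcription factors had a median log2 fold change of 0.13 with all libraries and 0.23 without the 2 low ones, and 0 of 18 were called in either. With the mean log2 CPM of that list as a covariate in the fit of all 39 libraries, Avp had a log2 fold change of 0.55 (SE 0.33, edgeR adjusted p = 0.382). The pituitary gland lies under the hypothalamus, and its hormone genes summed to between 2.55 and 2777 CPM. Growth hormone (Gh) exceeded 100 CPM in 6 libraries: replicate 5 of 9 months, replicates 2 and 5 of 15 months, replicate 5 of 24 months and replicates 2 and 5 of 30 months. Pituitary genes were called higher in the old in 4 of 8 cases, against 7.98% of all genes (Fshb, Prl, Pomc and Cga, from 3.66 for Pomc to 6.86 for Fshb on the log2 scale). The medians did not differ in that way: the summed list had a median of 6.46 CPM at 2 months, 5.78 CPM at 24 months and 12.3 CPM at 30 months, and its highest libraries had 29.3, 2777 and 2472 CPM. Replicate 2 of 30 months had both the highest Avp (33.5 CPM) and one of these pituitary signals. Without the 2 low libraries and these 6, Avp had a log2 fold change of 0.85 (SE 0.26, edgeR adjusted p = 0.0481), and without the 2 low libraries and replicate 2 of 30 months it had 0.87 (SE 0.25, adjusted p = 0.0232). In those same fits the difference among the 5 ages was not called (adjusted p = 0.128 and 0.0784). Without the 2 low and the 10 near-identical libraries the values were 0.98 (adjusted p = 0.00747) for old against 2 months and an adjusted p of 0.0576 among the ages.

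Avp was also compared with Oxt inside each library, a ratio that does not depend on the library total. The lowest, median and highest Avp count per Oxt count were 1.13, 1.35 and 2.55 at 2 months (n = 8), 0.815, 1.37 and 1.88 at 9 months (n = 8), 0.862, 1.41 and 2.39 at 15 months (n = 8), 1.43, 2.16 and 2.55 at 24 months (n = 7) and 0.625, 2.18 and 2.72 at 30 months (n = 8). Of the 15 old libraries 14 were above the 2-month median and 2 were above the highest 2-month library. The 15th, replicate 3 of 30 months, had the lowest ratio of all 39 (0.625, from 15 Avp and 24 Oxt counts), below every library of 2 months, and the other low library had 2.55 (from 28 and 11 counts). The ranges overlapped. The ratio was chosen after the values were seen and is given without a test, and whether the age difference of Avp differs from that of Oxt was not tested.

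**Figure D3:**
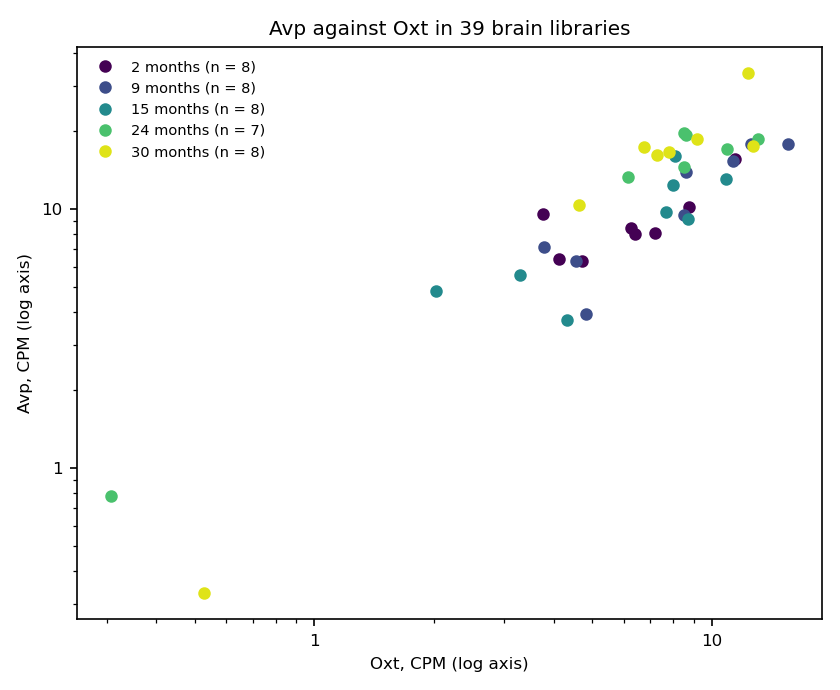
Avp against Oxt in the 39 brain libraries, both as CPM on log axes, 1 point a library, coloured by age. The 2 low libraries are the points at the lower left (0.308 and 0.528 CPM of Oxt). Most points of 24 and 30 months lie above those of 2, 9 and 15 months with a like Oxt level.

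The lateral and arcuate hypothalamic members were not called in any comparison with all libraries. Pmch had lowest, median and highest levels of 7.02, 10.6 and 13.8 CPM at 2 months, 7.96, 11.6 and 16.2 CPM at 9 months, 4.64, 10.5 and 15.8 CPM at 15 months, 0.532, 9.5 and 11.1 CPM at 24 months and 2.02, 8.67 and 17.97 CPM at 30 months. Its log2 fold change of old against 2 months was −0.18 (SE 0.27, edgeR adjusted p = 0.839), and 0.0050 (SE 0.17) without the 2 low libraries. Hcrt had 2.39, 3.98 and 4.74 CPM at 2 months, 2.84, 3.57 and 5.71 CPM at 9 months, 1.97, 3.63 and 4.47 CPM at 15 months, 0.112, 3.50 and 4.37 CPM at 24 months and 0.220, 3.29 and 5.39 CPM at 30 months. Its log2 fold change was −0.30 (SE 0.29, adjusted p = 0.698), and −0.10 (SE 0.16, 95% interval −0.41 to 0.21) without the 2 low libraries. The medians of Pmch and Hcrt at the 5 ages thus differed by less than the spread within an age.

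Agrp was the rarest member. Its medians were 0.641 CPM at 2 months, 0.555 at 9 months, 0.533 at 15 months, 0.612 at 24 months and 0.703 at 30 months, and the highest library (1.33 CPM) was of 30 months. The log2 fold change was 0.10 (SE 0.23, edgeR adjusted p = 0.905). Its annotated span is 70.7 kb long and overlaps 7 other annotated genes, among them Ripor1 (85.0 CPM, median of the brain libraries) and Ctcf (70.1 CPM) on the other strand, and the counting was not stated to use strand, so a part of its few reads may belong to them. Pmch lies inside Parpbp, on the opposite strand, which had a median of 0.520 CPM in brain.

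Of the cortical and striatal members, Cck alone was called in edgeR with all 39 libraries and no block. As 1 of 10 members at 30 against 2 months, this is near the 9.93% of all genes. Cholecystokinin acts as a transmitter through the Cckbr receptor in the forebrain. Its lowest, median and highest levels were 103, 133 and 143 CPM at 2 months, 118, 125 and 155 CPM at 9 months, 111, 128 and 143 CPM at 15 months, 109, 125 and 148 CPM at 24 months and 83.4, 104 and 127 CPM at 30 months. All 8 libraries of 30 months were below the 2-month median, 5 were below every library of 9, 15 and 24 months, and 3 were below every library of 2 months. Most of that difference lay after 24 months, an interval in which Cck was not called. From 2 to 24 months the log2 fold change was −0.03 (SE 0.08), from 24 to 30 months it was −0.26 (SE 0.08, edgeR adjusted p = 0.143), and from 2 to 30 months it was −0.29 (SE 0.08, 95% interval −0.44 to −0.14, 0.819-fold, adjusted p = 0.00958). The call at 30 against 2 months held in 39 of 39 fits that left out 1 library (adjusted p 0.0025 to 0.0308). The call among the 5 ages (adjusted p = 0.0267) was lost in 5 of them, without replicate 1 (0.0860), 2 (0.0665), 5 (0.0658), 7 (0.107) or 8 (0.0666) of 30 months, and without the 10 near-identical libraries (0.106). For 24 and 30 months together against 2 months Cck had −0.16 (SE 0.07, adjusted p = 0.158). From 24 to 30 months it was called in 1 of the 39 fits that left out a library, without replicate 6 of 30 months (adjusted p = 0.0437).

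Npy, whose peptide stimulates feeding and marks cortical interneurons, had medians of 37.5, 35.5, 35.3, 36.5 and 33.2 CPM in order of age, with every library between 28.4 and 42.7 CPM. Its log2 fold change from 2 to 30 months was −0.16 (SE 0.07, edgeR adjusted p = 0.188). Sst, which inhibits growth hormone release and marks dendrite-targeting interneurons, had medians of 119, 119, 120, 127 and 107 CPM, with every library between 88.3 and 141 CPM. From 24 to 30 months it had −0.25 (SE 0.08, edgeR adjusted p = 0.154), and from 2 to 30 months −0.12 (SE 0.07, adjusted p = 0.412). The lowest medians of Npy, Sst and Cck were all at 30 months, Cck alone of the 3 passed the test at 30 against 2 months in edgeR without a block, and the ranges of Npy and Sst at 30 months overlapped those of every other age.

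Vip, which marks disinhibitory interneurons and acts in the suprachiasmatic clock, had medians of 31.7, 32.2, 31.8, 30.6 and 30.6 CPM, with every library between 25.0 and 40.9 CPM. Its log2 fold change of old against 2 months was −0.0069 (SE 0.08, 95% interval −0.16 to 0.15). Tac1 had medians of 49.0, 50, 49.0, 49.6 and 50 CPM, and 38 of 39 libraries lay between 40.2 and 64.5 CPM. The remaining one, replicate 3 of 9 months, had 89.9 CPM. The log2 fold change of Tac1 was 0.09 (SE 0.09, 95% interval −0.10 to 0.27, edgeR adjusted p = 0.745).

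**Figure D4:**
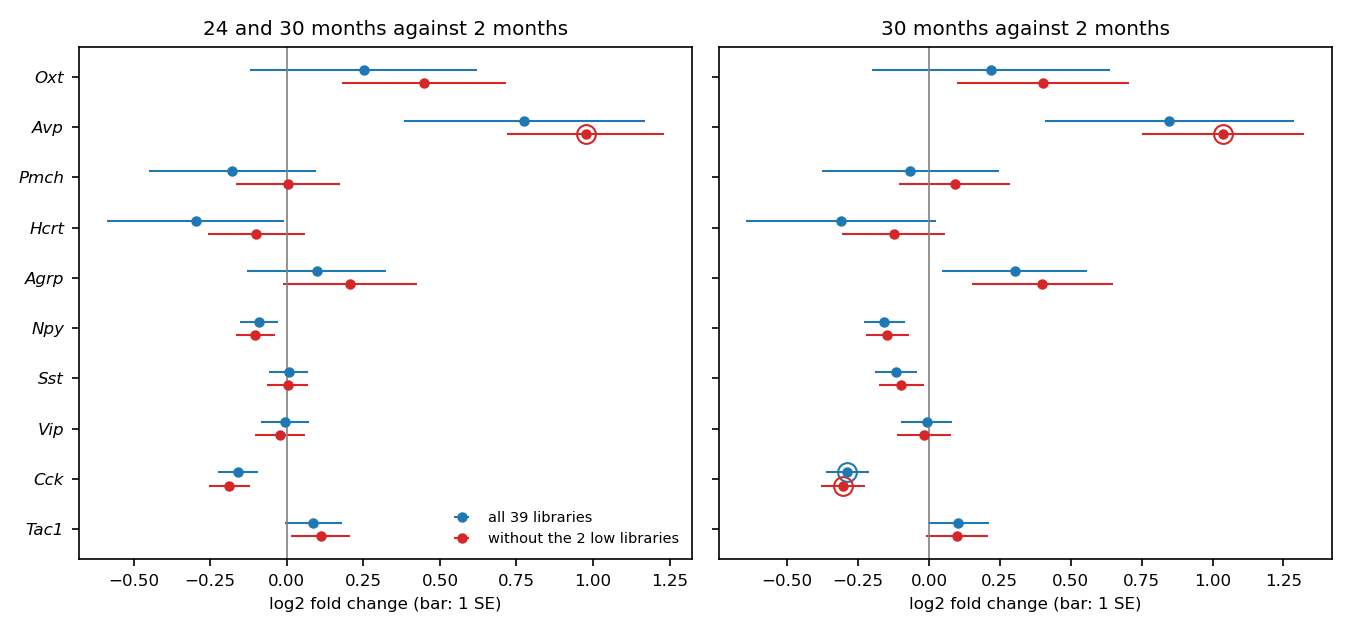
Log2 fold change of each gene with 1 SE, for 24 and 30 months together against 2 months (left) and for 30 against 2 months (right). Blue points use all 39 libraries, red points leave out the 2 low ones, and a ring marks an edgeR adjusted p under 0.05. Cck is ringed at 30 against 2 months in both fits (−0.29 and −0.30), and Avp is ringed in both comparisons without the 2 low libraries (0.98 and 1.04) and in neither with all 39.

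The genes around the peptides are given beside the 7.98% of all genes called in the old against 2 months and the 9.93% called at 30 against 2 months. Of 27 receptor genes of the members, 24 were tested and 0 were called in the old against 2 months (median log2 fold change −0.03, against −0.0016 over all genes) or at 30 against 2 months. Of 16 genes for precursor processing and dense-core vesicles, 0 were called in either (median 0.07 for old against 2 months). Of 13 tested further hypothalamic peptide genes, 1 was called, Nts (neurotensin), which was lower in the old. Nts had 8.91, 11.5 and 15.6 CPM (lowest, median, highest) at 2 months, 4.95, 8.45 and 10.6 CPM at 24 months and 4.90, 7.83 and 10.01 CPM at 30 months, a log2 fold change of −0.56 (SE 0.15, edgeR adjusted p = 0.0138), and −0.48 (adjusted p = 0.0321) without the 2 low libraries. At 30 against 2 months Crh (corticotropin-releasing hormone) was called as well (−0.47, SE 0.14, adjusted p = 0.0263), but not without the 2 low libraries. Of 13 tested genes of a further cortical and striatal peptide list 1 was called in the old against 2 months, Crhbp, which encodes the binding protein of that hormone. Crhbp rose from a median of 11.7 CPM at 2 months to 15.6 CPM at 24 months and had 13.7 CPM at 30 months (0.30, SE 0.08, edgeR adjusted p = 0.0101). Without the 2 low libraries 2 of the 13 were called in the old. At 30 against 2 months 0 of the 13 were called, with or without those libraries.

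Markers of cell types and regions are read against the same shares. In the old against 2 months, 0 of 20 interneuron genes (median log2 fold change 0.11) and 0 of 14 excitatory cortex genes (−0.03) were called, and 1 of 12 striatum genes was lower, Adora2a, the adenosine receptor of striatal projection neurons (−0.29, SE 0.07, edgeR adjusted p = 0.00304). At 30 against 2 months, the comparison in which Cck fell, the excitatory cortex list had a median of −0.14 and 1 of 14 was called, Nrgn (−0.30, SE 0.08, adjusted p = 0.0146), the interneuron list had a median of 0.03 and 1 of 20 was called lower (Sox6), and 4 of 12 striatum genes were called lower (among them Adora2a, median −0.17), a larger share than the 9.93% of all genes. Of the 18 hypothalamic transcription factors 1 was called lower (Dlx1). Without the 2 low libraries neither Sox6 nor Dlx1 was called, and 3 striatum genes were. The summed excitatory cortex list was between 4382 and 5402 CPM at 2 months and between 2514 and 5333 CPM at 30 months. Its part in the fall of Cck was not tested. The cerebellum, olfactory bulb and choroid plexus lists had 0 called genes, with medians of −0.12, −0.31 and −0.04 in the old against 2 months. Of the 10 general neuron genes, Stmn2 was called lower (−0.18, SE 0.03, adjusted p = 5.7e-04).

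Whether the members vary together was examined over 29 brain libraries, leaving out the 10 near-identical ones, after the mean of each age was subtracted from log2 CPM. Each of the 45 pairs was tested by a two-sided permutation test (100000 permutations of libraries within an age), with p-values adjusted over the 45. Libraries share depth and total, and the values are relative to that total. The 2 low libraries form a cluster of their own for the hypothalamic members, so their pairs are given over the remaining 27 libraries. Of the 45 pairs 9 were called on these 27, 8 positive and 1 negative. With the 2 low libraries 14 were called, 12 positive and 2 negative.

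Oxt and Avp varied most closely together among the hypothalamic members. Over 27 libraries Pearson's r was 0.84 (permutation adjusted p = 3.4e-04) and Spearman's rho was 0.78 (adjusted p = 0.0015). With the low libraries, which are also the 2 farthest from the median of Oxt, r was 0.95. Hcrt varied with Oxt (r = 0.58, permutation adjusted p = 0.0430, rho = 0.53, adjusted p = 0.0737) and fell short of the threshold with Avp (r = 0.57, adjusted p = 0.0567). Pmch did not follow Oxt (r = −0.02), Avp (r = −0.07) or Hcrt (r = −0.12) over 27 libraries, and its pairs with them (r = 0.80, 0.78 and 0.84 over 29) rest on the 2 low libraries.

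Npy, Sst and Cck formed a set. Over 27 libraries Npy and Sst had r = 0.83 (permutation adjusted p = 3.4e-04, rho = 0.79), Npy and Cck r = 0.77 (adjusted p = 8.1e-04, rho = 0.70) and Sst and Cck r = 0.84 (adjusted p = 2.2e-04, the smallest adjusted value that these permutations gave, rho = 0.83). Over all 29 their r was 0.84, 0.76 and 0.78, and without the 2 libraries farthest from the median it was 0.81, 0.70 and 0.80. Vip went with Tac1 instead (r = 0.79, permutation adjusted p = 2.2e-04, rho = 0.86 over 27 libraries, and r = 0.67 over 29). Agrp went with Tac1 (r = 0.56, adjusted p = 0.0138, rho = 0.59). The mean of Agrp was 25.6 counts a library, and a part of its reads may belong to the genes that overlap it. The 1 negative pair was Pmch and Cck (r = −0.62, permutation adjusted p = 0.0208, rho = −0.49, adjusted p = 0.0852). Hcrt and Cck had r = 0.54 (adjusted p = 0.0430, rho = 0.45, adjusted p = 0.0900). By Spearman's rho 6 pairs were called over the 27 libraries.

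**Figure D5:**
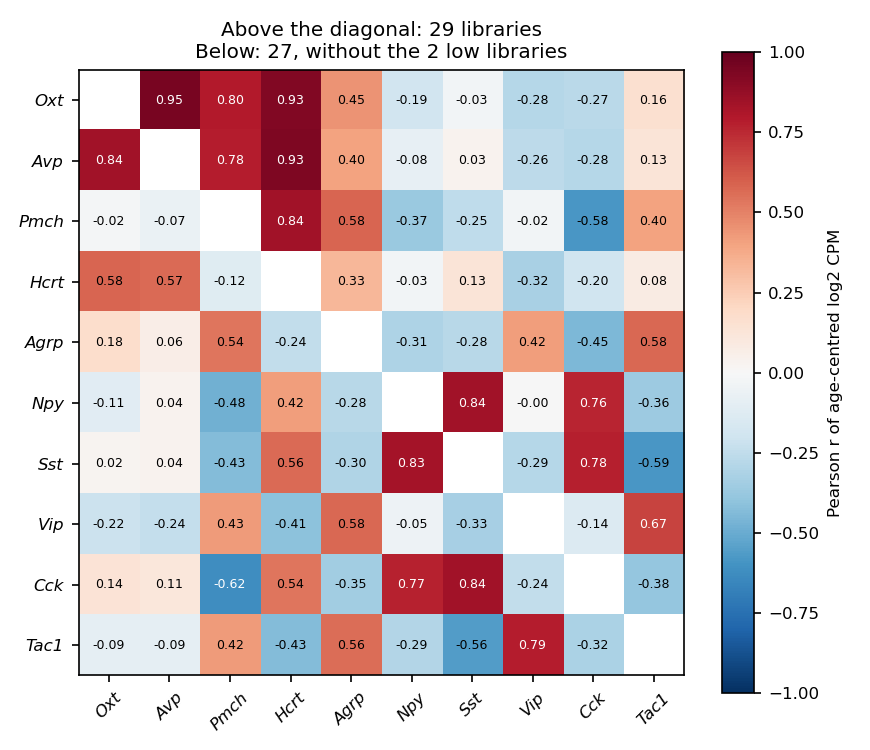
Pearson correlation of age-centred log2 CPM between each pair of the 10 genes, over 29 brain libraries above the diagonal and over 27 below it, without the 2 low libraries. Oxt and Avp keep r = 0.84 and Npy, Sst and Cck keep 0.77 to 0.84 below the diagonal, while Pmch with Oxt goes from 0.80 to −0.02.

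The genes whose pattern was most like that of each member were looked for among 15661 genes over the same 29 libraries. For Oxt they were Avp (r = 0.95), Hcrt (0.93) and Gal (0.91), for Avp Oxt, Hcrt and Trh (0.83), and for Hcrt Avp, Oxt and Trh (0.86). These values include the 2 low libraries, in which these genes were low together. Without those libraries r was 0.84 for Oxt with Avp, 0.58 for Oxt with Hcrt and 0.57 for Avp with Hcrt. It was 0.77 for Oxt with Gal, 0.46 for Avp with Trh and 0.71 for Hcrt with Trh. Which genes are nearest without the 2 low libraries was not sought. For Pmch they were Hcrt (0.84), Sytl4 (0.82) and Oxt (0.80), of which Sytl4 alone kept its likeness (0.68) without the 2 low libraries. For Sst they were Rprm (0.93), Dbn1 (0.91) and Camkv (0.89), for Cck Stx1a (0.92), Fhl2 (0.87) and Crip2 (0.86), and for Npy Sst (0.84), Ttll11 and 3110056O03Rik (0.84 each). For Vip they were Bcat2, Gm11766 and Map1lc3b (0.85 each), for Tac1 C330018D20Rik (0.89), C1galt1c1 (0.87) and Tmem60 (0.86), and for Agrp Serpinb9 (0.78), 2010002M12Rik and Rsph9 (0.77 each). These are descriptions over shared libraries and carry no p-value.

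Cortical members also stood at the extremes in libraries rich in mitochondrial transcripts. Replicate 7 of 30 months (16.5% mitochondrial) had the lowest Cck (83.4 CPM), Npy (28.4 CPM) and Sst (88.3 CPM) of all 39 libraries and the highest Pmch (17.97 CPM). Replicate 3 of 9 months (17.1%) had the highest Tac1 (89.9 CPM) and Oxt (15.6 CPM) and the second lowest Npy (29.9 CPM) and Sst (89.8 CPM). Replicate 1 of 9 months (17.02%) had 62.8 CPM of Tac1 and an inner value of Sst (114 CPM). The part of mitochondrial share in these levels was not tested. The median share was 8.51% at 2 months and 7.95% at 30 months.

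The other tissues held little of these transcripts, and CPM there is of the plain library total. A level of 3 counts is about the upper 95% limit of the true mean when a count of 0 is seen. It was between 0.0596 and 0.149 CPM in the libraries of the 4 tissues, a limit that covers counting error alone. In whole blood (24 libraries) Avp, Sst and Cck had 0 counts in all 24, and Vip had 0.0313 to 0.453 CPM. In liver (24 libraries) Oxt, Avp, Pmch, Hcrt, Npy and Vip were at or under that level in all 24. In abdominal skin (25 libraries) Npy had 0.0265 to 7.06 CPM (median 0.154), Avp 0.0556 to 1.46 CPM (median 0.332) and Cck 0.0990 to 0.978 CPM (median 0.347). Agrp was read in all 25 skin libraries, at 0.521 to 1.498 CPM (median 0.894), above its median in brain on the same scale (0.583 CPM). The 5 skin libraries of 30 months had 1.22 to 1.498 CPM of Agrp and the highest of the younger ages had 1.17 CPM, a difference that was not tested, and the overlap with Ctcf (83.1 CPM, median in skin) applies there too.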

How the data were processed

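The authors aligned 50-base single-end reads of TruSeq RNA libraries to GRCm38 with TopHat2 2.0.6 and deposited counts per gene made with HTSeq 0.5.3p9 or featureCounts 1.4.3-p1, as the submitters' processing notes list them. Strand use in counting was not given in the sources used here. RPKM values deposited by the authors rest on lengths that did not follow the annotated exon lengths (Spearman's rho across genes −0.0059), so RPKM was recomputed from counts and annotated exon lengths.

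Counts of 39 brain libraries, 28141342 to 50375815 each, were filtered by filterByExpr (18851 genes left), scaled by TMM and fitted with age as a factor in edgeR 4.0.16 (glmQLFit, robust, and glmQLFTest), with adjusted p under 0.05 as the threshold. On simulated counts the fit was tested for recovery of known changes. Levels are CPM, and spread and correlation used log2 CPM with a prior count of 2. The 95% intervals of fold changes are normal approximations from the SE. As alternatives, scaling was by RLE, the low-count filter was dropped or replaced by that of the study (an RPKM above 0 in every brain library), and fits were made with DESeq2 1.42.0, limma 3.58.1 voom, blocks by title code, an added 24-month library and libraries left out. Motifs were sought in RefSeq promoters of GRCm38.p6.

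The members and the lists were chosen with earlier results of these data known. Named were the 10 members, called genes of each list (the smallest p and up to 3 others), the pituitary hormones, and the 3 genes most like each member. Further genes (markers low in 2 libraries, genes called only at 30 against 2 months, and genes that overlap members) were chosen after their values were seen. Alternatives that leave out the 2 low libraries, use the hypothalamic covariate or leave out pituitary-rich libraries were chosen after seeing the data. Nothing in the labels says that every library is a separate mouse, so p-values measure the spread between libraries. All 112 libraries of the main table were used, and each column matched a sample title. Among the hypothalamic transcription factors 1 gene enters the list's counts and is not reported here by itself.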

Additional observations from a re-analysis of the deposited data

Results flagged for a closer look

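Of 70 groups of 4 to 10 libraries (10 members in brain, and Avp, Agrp, Npy and Cck in skin), 9 held a library far apart from the rest of its age by Dixon's test at the 95% level. Chance gives about 1 in 20 groups where groups are independent and values normal. Here the same libraries recur across genes and the test used CPM without logs, so 9 of 70 cannot be set against that rate. In brain at 24 months replicate 6 was the lowest for Avp (0.784 CPM, next 13.3 CPM), Pmch (0.532 CPM, next 8.76 CPM) and Hcrt (0.112 CPM, next 2.92 CPM). At 2 months replicate 3 was the highest for Avp (15.6 CPM, next 10.2 CPM). At 9 months replicate 3 was the highest for Tac1 (89.9 CPM, next 62.8 CPM), and this library had the highest mitochondrial share of the 39 (17.1%).

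In skin the highest library stood apart for Avp at 24 months (replicate 2, 0.815 CPM, next 0.345 CPM), Agrp at 15 months (replicate 3, 0.954 CPM, next 0.696 CPM) and Npy at 24 months (replicate 2, 2.22 CPM, next 0.150 CPM) and 30 months (replicate 3, 1.08 CPM, next 0.154 CPM). Replicate 2 of 24 months stood apart in skin for both Avp and Npy.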

How the results depend on the processing

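With 39 brain libraries 0 members were called in the old against 2 months, 1 among the ages and 0 from 24 to 30 months. The replicate block (title code and number) gave 1 (Cck), 3 (Cck, Npy and Sst) and 3 (the same), and at 30 against 2 months it called Npy (−0.22, adjusted p = 0.00674) beside Cck. The share of all genes called with this block is not given here, so these counts cannot be set against it. Deviations of same-coded libraries correlated over 0.1 in 50 of 67 pairs (median r 0.23, −0.65 to 0.74), against 201 of 536 pairs of different codes (median −0.04). Same-coded pairs thus passed 0.1 more often than the others, though not every one did. The labels do not say what the code is, and the main fit held no block. The calls of Npy and Sst, and of Cck in the old against 2 months, came with this block and not in the main fit. With 30 months alone as old 1 was called (Cck, −0.29). Among the ages 0 were called with the added 24-month library and 0 without the 10 near-identical libraries. Leaving out each library in turn gave 0 to 0 members for the old against 2 months, 0 to 1 among the ages (0 without replicate 1, 2, 5, 7 or 8 of 30 months) and 0 to 1 from 24 to 30 months (1 without replicate 6 of 30 months). The old against 2 months gave 1 (Avp) in each fit without the 2 low libraries: alone, without a 3rd low library, without replicate 2 of 30 months, without the near-identical or the pituitary-rich libraries, by DESeq2 and by limma voom. Among the ages these gave 2 alone, without the 3rd, by DESeq2 and by voom, and 0 in the other 3. Called pairs of members numbered 9 by Spearman's rho, 9 without the 2 low libraries and 8 (without replicate 6 of 24 months) to 17 leaving out each library, against 14. Without the 2 low libraries the spread was 0.64 (Oxt), 0.60 (Avp), 0.40 (Pmch) and 0.36 (Hcrt).

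Small log2 fold changes of old against 2 months turned sign, none of them called. Oxt was −0.00025 with the hypothalamic covariate and −0.10 by limma voom. Pmch was 0.0050 without the 2 low libraries, 0.0039 also without the near-identical, 0.10 also without the pituitary-rich, 0.0042 by DESeq2, 0.0051 without the 3rd low library and 0.0421 without replicate 2 of 30 months. Agrp was −0.0169 by voom and −0.11 with 24 months alone. Sst was −0.0070 with the replicate block, −0.0187 with the added library and −0.12 with 30 months alone. Vip was 0.0124 with the covariate, 8.6e-04 with the code alone as block, 0.0440 with the added library and 9.1e-04 without the low and pituitary-rich libraries. Leaving out 1 library, or the 3 that include replicate 2 of 30 months, gave −0.27 to 0.0421 for Pmch, −0.0024 to 0.27 for Agrp, −0.0268 to 0.0283 for Sst and −0.0371 to 0.0131 for Vip. From 2 to 9, 9 to 15 and 15 to 24 months 0 members were called under every setting run. The causes were not tested. Depth limits Agrp most, at a mean of 25.6 counts a library.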

Other observations

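A further 24-month brain library, kept out of the comparisons and added only as an alternative, had 22.3% mitochondrial transcripts, above the 39 others. Its Tac1 (105 CPM), Vip (49.6 CPM) and Pmch (23.4 CPM) were above the highest of the 39 libraries (89.9, 40.9 and 17.97 CPM). Its other members lay within the range of the 39, with 14.3 CPM of Oxt, 12.6 CPM of Avp, 1.65 CPM of Hcrt, 28.8 CPM of Npy, 96.2 CPM of Sst and 100.2 CPM of Cck.

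In abdominal skin, with 5 libraries an age, Avp had a lowest, median and highest level of 0.0990, 1.23 and 1.46 CPM at 2 months, and medians of 0.332, 0.321, 0.298 and 0.148 CPM at the later ages in order. The lowest 2-month library was below the median of every later age. Npy reached 7.06 CPM at 2 months, where its median was 2.71 CPM and its lowest library had 0.0330 CPM, a level under 3 counts. Neither difference with age was tested.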
